A study of Mus musculus with 6 samples.

Results

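Mouse genes of the Ly6 family, Ly6a, Ly6c1, Ly6c2 and Ly6e, were followed in RNA-seq libraries of CD8 T cells with and without CD73. They are the rows of the count table whose Ensembl identifier carries one of these 4 symbols, 4 of the 49671 genes in the table, and they were picked as GPI-anchored proteins of memory and interferon-exposed CD8 T cells. The cells were splenic CD8 T cells of OT-I mice, whose transgenic T cell receptor recognises the ovalbumin peptide SIINFEKL. All 6 libraries came from cultures given the peptide each day at 10 ng/mL for 5 days together with IL-7 and IL-15 (5 ng/mL each), which the labels call exhaustion, and the cells were moved to fresh medium at 48 hours. No unstimulated cells were analysed here, so the members' response to the peptide itself was not measured. The 3 libraries labelled CD73 KO and the 3 labelled WT carried the same receptor and received the same treatment, and live cells were sorted before RNA was taken. The labels do not say how CD73 was removed, nor whether replicates are separate mice or separate cultures. P-values here therefore reflect only how much these samples vary, and part of that variation may be technical.

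Ly6 proteins are small surface proteins that share a disulphide-bonded finger-like fold and are held in the outer leaflet of the membrane by a glycosylphosphatidylinositol (GPI) anchor. Ly6a encodes Sca-1, long used to sort mouse blood stem cells and also carried by activated and memory T cells. Ly6c1 and Ly6c2 encode the Ly6C antigens that mark inflammatory monocytes and memory CD8 T cells, and Ly6e encodes a widely expressed member known for restricting coronavirus entry. Ly6a, Ly6c2 and Ly6e are known as genes that interferon can induce. CD73, the product of Nt5e, is itself a GPI-anchored protein, an enzyme that turns extracellular AMP into adenosine.

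The members lie within 156.919 kb on chromosome 15 of GRCm38, the assembly that mm10 names. In GENCODE M21, Ly6e spans chr15:74955051-74959905 on the plus strand. On the minus strand, Ly6a spans chr15:74994877-74998031, Ly6c1 spans chr15:75044018-75048830 and Ly6c2 spans chr15:75108158-75111970. No annotated gene overlapped any of them on either strand. Ly6c1 and Ly6c2 are close copies, with coding sequences of 396 bases that are identical at 387 positions (97.7%). The first 150 coding bases of the pair are printed because reads are assigned to one copy or the other by such letters, and the 6 positions that differ in this stretch are in capitals.
Ly6c1: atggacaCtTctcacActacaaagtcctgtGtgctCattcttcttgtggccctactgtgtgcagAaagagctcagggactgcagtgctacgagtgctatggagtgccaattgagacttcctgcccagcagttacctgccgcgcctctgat
Ly6c2: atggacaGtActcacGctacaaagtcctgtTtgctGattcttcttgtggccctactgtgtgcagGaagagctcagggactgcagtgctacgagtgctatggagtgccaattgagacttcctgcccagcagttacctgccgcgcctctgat

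The other pairs of members were further apart. The coding sequence of Ly6a was 82.0% identical to that of Ly6c1 and 81.7% to that of Ly6c2, and Ly6e was 50.0% to 52.7% identical to the other members. Of all stretches of 50 bases in one protein-coding transcript of each gene, 36.7% for Ly6c1 and 33.0% for Ly6c2 also occurred in a transcript of another gene, mostly of the other copy. Ly6a shared 8.05% of such stretches, most often with Ly6i, and Ly6e shared none. At 100 bases the shares were 15.3% for Ly6c1 and 15.8% for Ly6c2, and 0 for Ly6a and Ly6e. Counts of Ly6c1 and Ly6c2 are therefore less certain than those of Ly6a and Ly6e, since counting may split reads between near-identical copies. Upstream of their start sites the copies differed more, with 208 identical letters among 282 aligned columns (73.8%) of windows that run from 250 bases before to 50 bases after the start (RefSeq, GRCm38.p6). The 120 bases just before the start, chr15:75048838-75048957 for Ly6c1 and chr15:75111972-75112091 for Ly6c2, both on the minus strand, are printed because the 2 copies differ more here than in their coding sequence. Capitals mark letters that differ from, or have no partner in, the other copy.
Ly6c1 upstream: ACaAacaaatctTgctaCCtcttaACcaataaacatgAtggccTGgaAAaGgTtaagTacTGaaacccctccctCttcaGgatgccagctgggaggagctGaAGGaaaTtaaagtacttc
Ly6c2 upstream: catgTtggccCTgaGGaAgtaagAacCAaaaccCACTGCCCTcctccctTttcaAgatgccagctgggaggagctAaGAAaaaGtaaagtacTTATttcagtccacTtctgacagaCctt

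RefSeq windows were matched for 2 of the 4 members, Ly6c1 and Ly6c2, with 2 windows each. GAAA followed after any 2 letters by a further GAAA, the core of an interferon-stimulated response element, was searched on both strands and occurred in 0 of these 4 windows and in 3.44% of all 32851 windows of 300 bases. The letters TTCNNNGAA, bound by STAT dimers, occurred in 0 of them and in 8.30% of all windows. The absence of a match says only that these letters are not in these windows.

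Libraries held 10202128 to 19382950 counts in the CD73 KO group and 6934150 to 13039990 in the WT group. Levels are CPM, the count of a gene scaled to a common library total with TMM factors. The detection floor was set at 3 counts, which is 0.160 to 0.427 CPM. Nt5e, the targeted gene, stood at 3.67, 8.45 and 8.47 CPM in CD73 KO replicates 1, 2 and 3. It stood at 22.6 and 37.4 CPM in WT replicates 1 and 3 and at 5.22 CPM in the library labelled WT replicate 2, which lies within the CD73 KO range. The log2 difference was -1.67 ± 0.72 (standard error, SE), with an edgeR adjusted p of 0.534, so each direction given here from the labels carries that limit, and the values without the library labelled WT replicate 2 are given with the members. Between the genotypes, 7 of 12242 tested genes (0.0572%) passed edgeR's quasi-likelihood test at an adjusted p of 0.05, and 1180 (9.64%) had an unadjusted p under 0.05. The 6 CD8 T cell markers, Cd8a, Cd8b1, Cd3d, Cd3e, Cd3g and Trac, summed to 3598 to 3925 CPM in the CD73 KO group. Their sums were 3194 to 3401 CPM in the WT group.

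None of the 4 members was among the 7 genes past the adjusted threshold. Ly6a, Ly6c2 and Ly6e, 3 of the 4, passed the filter on low counts and were tested, and the fitted difference of each had a positive sign, that is, higher in the libraries labelled CD73 KO. Ly6c1 was below the filter. Over all tested genes the median log2 difference was 0.01. In bulk RNA, fewer cells that express a gene and less RNA of it per cell cannot be told apart.

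Ly6a, the gene of Sca-1, stood at 424, 357 and 299 CPM in CD73 KO replicates 1, 2 and 3, from 7964, 5411 and 3103 counts. It stood at 94.3, 230 and 199 CPM in WT replicates 1, 2 and 3, from 1212, 2162 and 1400 counts. Every CD73 KO library was above every WT library, and WT replicate 1 was the lowest by a wide gap. The group means were 360 ± 62.5 CPM for CD73 KO against 175 ± 71.3 CPM for WT (SD, n = 3 each). The log2 difference was 1.05 ± 0.32 (SE), with an unadjusted edgeR p of 0.0133 and an edgeR adjusted p of 0.400. Ly6a is thus 1 of the 4 members (3 of them tested) with an unadjusted p under 0.05, beside 9.64% of all tested genes. Of all tested genes, 5.75% had such a p and were higher in CD73 KO. The unadjusted edgeR p of Ly6a was 0.0633 with the replicate number as a block and 0.0783 without CD73 KO replicate 1. It was thus no longer under 0.05 in either. Ly6a is also the 1 tested member whose groups did not overlap, which held for 1859 of the tested genes (15.2%), and in the direction of CD73 KO for 7.59%. The difference was 0.74 ± 0.16 (SE) without WT replicate 1 and 1.29 ± 0.33 (SE) without the library labelled WT replicate 2.

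Ly6c2, which encodes a Ly6C antigen, stood at 615, 245 and 233 CPM in CD73 KO replicates 1, 2 and 3, from 11562, 3714 and 2416 counts. It stood at 178, 238 and 123 CPM in WT replicates 1, 2 and 3, from 2291, 2236 and 864 counts. One library, CD73 KO replicate 1, stood far above the others, and the groups overlapped, with the library labelled WT replicate 2 above CD73 KO replicate 3. The means were 364 ± 217 CPM and 180 ± 57.6 CPM (SD, n = 3 each). The log2 difference of 1.02 ± 0.46 (SE) had an edgeR adjusted p of 0.550. Without CD73 KO replicate 1 it was 0.40 ± 0.24 (SE), and without the library labelled WT replicate 2 it was 1.27 ± 0.54 (SE).

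Ly6e had the most counts of the members and varied least. It stood at 1248, 1054 and 1200 CPM in CD73 KO replicates 1, 2 and 3, and at 901, 1106 and 942 CPM in WT replicates 1, 2 and 3. The groups overlapped in 1 pair, the library labelled WT replicate 2 above CD73 KO replicate 2. The means were 1167 ± 101 CPM and 983 ± 108 CPM (SD, n = 3 each). The log2 difference was 0.25 ± 0.11 (SE), with an edgeR adjusted p of 0.520, and it was 0.34 ± 0.13 (SE) without the library labelled WT replicate 2.

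Ly6c1, the near-identical copy of Ly6c2, was close to the detection floor. CD73 KO replicates 1, 2 and 3 held 61, 7 and 1 counts, and WT replicates 1, 2 and 3 held 2, 3 and 1. Only CD73 KO replicate 1, with 3.25 CPM, stood well above the floor, and it is also the library with the highest Ly6c2. Of the counts of the pair in that library, 0.525% were given to Ly6c1 (exact 95% binomial interval 0.402% to 0.674%, counting error only). Summed over libraries, Ly6c1 had 69 CD73 KO and 6 WT counts, a ratio per library size of 7.59 (exact 95% interval 3.32 to 21.4, counting error only). Of the 69 CD73 KO counts, 61 were in CD73 KO replicate 1. Without that library there were 8 and 6 counts and the ratio was 1.53 (0.465 to 5.34). These counts are too few to show whether the remaining libraries differ. In the other 5 libraries the share of the pair given to Ly6c1 was 0.0414% to 0.188%. Whether the few Ly6c1 counts are reads of Ly6c2 placed on its copy was not tested. The summed counts of the pair, which do not depend on the split, gave the same difference as Ly6c2 alone, 1.02 ± 0.46 (SE), with an edgeR adjusted p of 0.550.

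**Figure D1:**
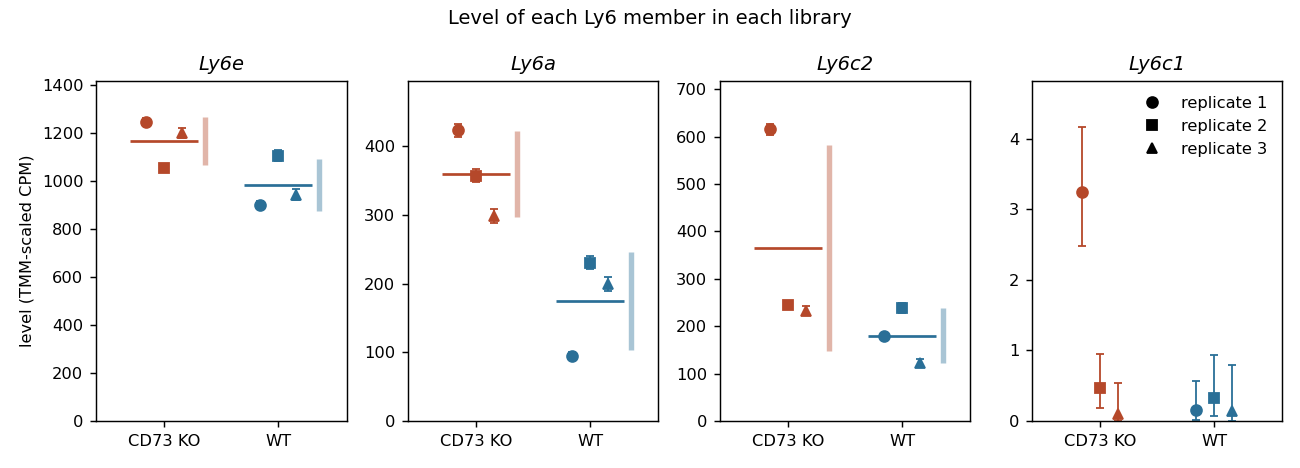
TMM-scaled CPM of Ly6e, Ly6a, Ly6c2 and Ly6c1 (vertical axes, from 0, different for each gene) in the CD73 KO and WT libraries. Points are libraries with exact 95% Poisson intervals, horizontal lines are group means and the pale bars beside them span mean ± SD (n = 3), left out for Ly6c1. The Ly6a groups do not overlap, and CD73 KO replicate 1 stands far above the other libraries for Ly6c2 (615 CPM) and Ly6c1 (3.25 CPM).

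The plot of levels by library shows the 2 kinds of spread side by side. For Ly6a the spread lies between and within the groups, for Ly6c2 it comes mostly from CD73 KO replicate 1, and Ly6e is tight in both groups. Within groups, the SD of log2 CPM was 0.52 for Ly6a, above that of 99.0% of the 4518 genes with a mean of at least 50 CPM. For Ly6c2 it was 0.65, above 99.6% of those genes, and for Ly6e it was 0.14, above 50.4%. Ly6a and Ly6c2 were thus among the genes that differed most between libraries of the same genotype.

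**Figure D2:**
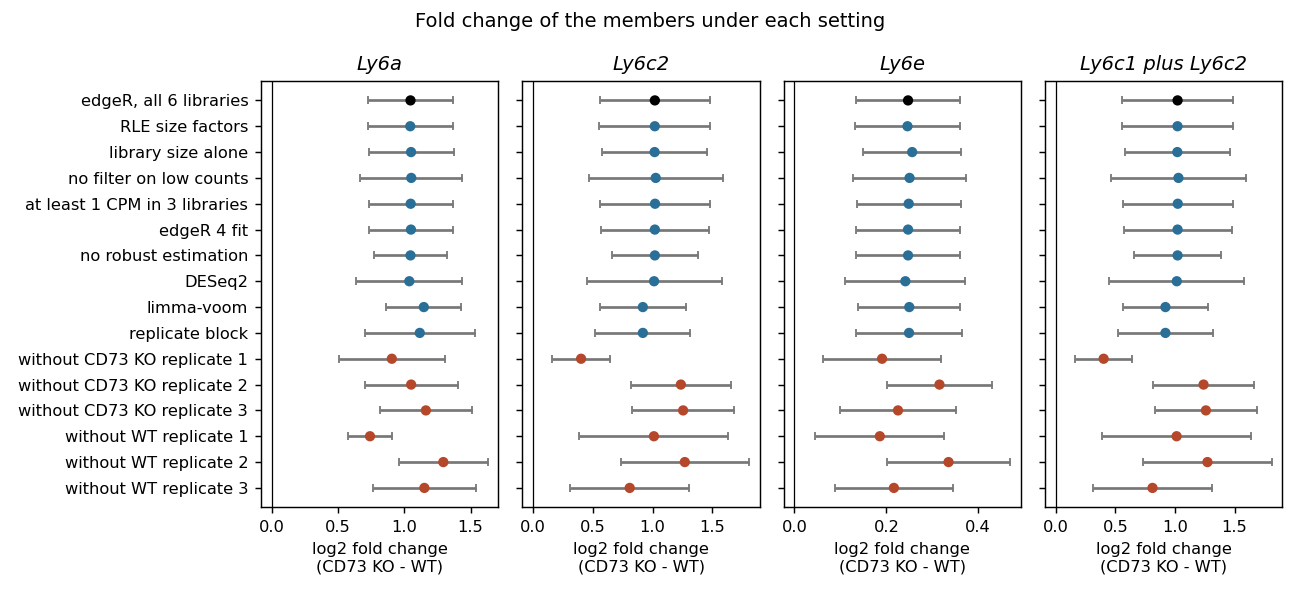
Log2 difference, CD73 KO minus WT (horizontal axes, different for each gene), with its SE for Ly6a, Ly6c2, Ly6e and the summed Ly6c1 and Ly6c2 counts under each setting (rows). Black is the edgeR fit with 6 libraries, blue points change the processing and red points leave out 1 library. All values shown are above 0, and the lowest for Ly6c2 is 0.40, without CD73 KO replicate 1.

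The plot of fold changes by setting shows that changes of normalization, filter or model moved the differences little and that leaving out a library moved them more. For Ly6a the lowest of 15 alternatives was 0.74 and the highest 1.29, with edgeR, DESeq2 or limma-voom adjusted p from 0.248 to 0.939. For Ly6c2 they ran from 0.40 to 1.27 and for Ly6e from 0.19 to 0.34. No adjusted p of these 3 members passed 0.05 under any alternative run.

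Levels of different genes were compared per kilobase of transcript. Over all annotated exons, Ly6e stood at 308 ± 26.7 CPM per kb in CD73 KO and 260 ± 28.6 in WT, and Ly6a at 299 ± 51.9 and 145 ± 59.2 (SD, n = 3 each). Ly6c2 followed at 133 ± 79.3 and 65.6 ± 21.0 CPM per kb, and Ly6c1 was near 0, at 0.756 ± 1.03 and 0.123 ± 0.0589. On this scale Ly6e and Ly6a did not differ beyond their spread in the CD73 KO libraries, and Ly6a stood below Ly6e in each WT library. Ly6a stood above Ly6e in CD73 KO replicates 1 and 2 (352 against 330 and 296 against 278 CPM per kb). That order, and the order of Ly6a and Ly6c2, depended on the length used. With the length of one protein-coding transcript each (2281 bases for Ly6e, 819 for Ly6a, 822 for Ly6c2), Ly6e stood at 512 ± 44.3 and 431 ± 47.5 CPM per kb. On that scale Ly6a stood at 439 ± 76.3 and 213 ± 87.1 CPM per kb, and was below Ly6e in each library. Ly6c2 stood at 443 ± 264 and 219 ± 70.1 (SD, n = 3 each). Ly6a and Ly6c2 did not differ beyond their spread.

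The remaining genes around the members were mostly silent. Within 500 kb of a member lie 52 annotated genes, the members included, and 5 of the others were tested. Arc, known as an immediate early gene of neurons, had a log2 difference of 0.63 ± 0.26 (SE) with an edgeR adjusted p of 0.501. Jrk stood at 0.14, Them6 at -0.17, Lynx1 at 0.84 and I830127L07Rik at -0.00. None passed the adjusted test. I830127L07Rik is annotated as a transcribed pseudogene in GENCODE, and its start coincides with that of Ly6a2 in RefSeq. It held 31.6, 6.47 and 9.43 CPM in CD73 KO replicates 1, 2 and 3 and 17.1, 25.2 and 5.27 CPM in WT replicates 1, 2 and 3. Its high libraries (CD73 KO replicate 1, WT replicate 1 and the library labelled WT replicate 2) are thus spread over both groups, while the 3 highest Ly6a libraries were those labelled CD73 KO.

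**Figure D3:**
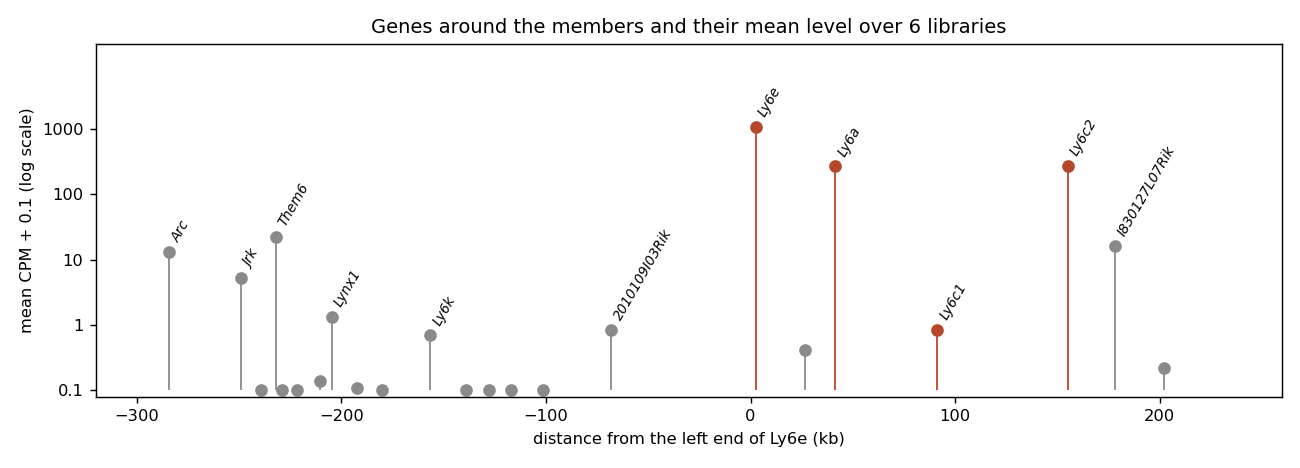
Mean TMM-scaled CPM plus 0.1 over 6 libraries (vertical axis, log scale) of protein-coding genes and 1 transcribed pseudogene, placed by the distance of their middle from the left end of Ly6e in kb. Red points are the 4 members, grey points other genes, and genes above 0.5 CPM are named. Ly6e, Ly6a and Ly6c2 stand above every other gene shown on this scale, and Ly6c1, between Ly6a and Ly6c2, stands at 0.737 CPM.

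The map of the neighbourhood shows high and near-silent family genes side by side. Of 42 further genes of the Ly6/uPAR family on a list made for this comparison, 39 were matched in the table and 24 of them had 0 counts in all 6 libraries, among them Ly6f, Ly6h and Psca. The 5 tested family genes were I830127L07Rik (Ly6a2), Ly6g5b, Lynx1, Lypd6b and Plaur, the urokinase receptor. None had an unadjusted edgeR p under 0.05, beside 9.64% of all tested genes, and none passed the adjusted threshold. Of the others, Ly6k held 24, 8 and 4 counts in CD73 KO replicates 1, 2 and 3 and 7, 5 and 2 in WT replicates 1, 2 and 3. The gene 2010109I03Rik (Ly6m) held 11, 16 and 15 counts against 3, 5 and 4, and was below the filter. In CPM its groups nearly touched, with the lowest CD73 KO library at 0.585 and the highest WT library at 0.569. Groups without overlap were found for 15.2% of all tested genes, and for 7.59% with CD73 KO higher. Ly6g, the antigen of mature neutrophils, held at most 5 counts in a library.

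The genes whose level was most like that of each member were taken over the 6 libraries from 9204 genes, by Pearson's r of log2 CPM. The 6 libraries share the genotype difference and the library effects, so r is a description. For Ly6a they were Mppe1 (0.99), Fchsd1 (0.99), Trafd1 (0.98), Ifit1 (0.98) and Zbp1 (0.98). Ifit1, which binds viral RNA caps, and Zbp1, a sensor of Z-form nucleic acid, are interferon-stimulated genes, and Mppe1 encodes an enzyme that remodels GPI anchors. Zbp1 counts were 22.8% to 33.0% of Ly6a counts in every library, and Irf9, the DNA-binding part of the type I interferon response complex, had an r of 0.96 with Ly6a. The log2 difference of Mppe1 was 0.21 ± 0.11 (SE), much smaller than that of Ly6a.

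Among the 5 genes most alike to Ly6c2 were Smim19 (1.00), Shisa5 (0.99), Plac8 (0.99) and Itfg2 (0.99). Plac8, which encodes a small cysteine-rich protein, stood at 650, 406 and 388 CPM in CD73 KO replicates 1, 2 and 3 and at 312, 364 and 233 CPM in WT replicates 1, 2 and 3. Both genes were highest in CD73 KO replicate 1 and lowest in WT replicate 3. There were 1.06 to 1.89 Plac8 counts per Ly6c2 count, with the lowest ratio in CD73 KO replicate 1. The log2 difference of Plac8 was 0.67 ± 0.23 (SE), with an edgeR adjusted p of 0.439. Cd44, a memory marker, had an r of -0.53 with Ly6c2. Il7r, a survival receptor of memory cells, had one of -0.41, and Cxcr3 one of 0.48. A higher r with Ly6c2 than these was found for 77.7%, 71.0% and 24.1% of the genes ranked. For Irf9 and Irf7, r with Ly6c2 was 0.69 and 0.58, with 11.6% and 18.3% of the genes ranked above.

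For Ly6e they were H2-M3 (1.00), Pet100 (0.99), Nfatc2ip (0.98), Aste1 (0.96) and Rnaseh1 (0.95). H2-M3, a class Ib molecule that presents formylated peptides, held 2.93% to 3.03% of the counts of Ly6e in each library. The genes named for each member were picked for the highest r, so a lower r between members follows from that choice. Pearson's r was 0.66 between Ly6a and Ly6c2, 0.83 between Ly6a and Ly6e and 0.80 between Ly6c2 and Ly6e (n = 6 libraries each). Of the genes ranked, 0.989% had a higher r with Ly6e than Ly6a did, and 1.59% a higher r than Ly6c2 did. With Ly6a, 2.12% were above Ly6e and 7.30% above Ly6c2. With Ly6c2, 5.60% were above Ly6e and 13.9% above Ly6a.

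**Figure D4:**
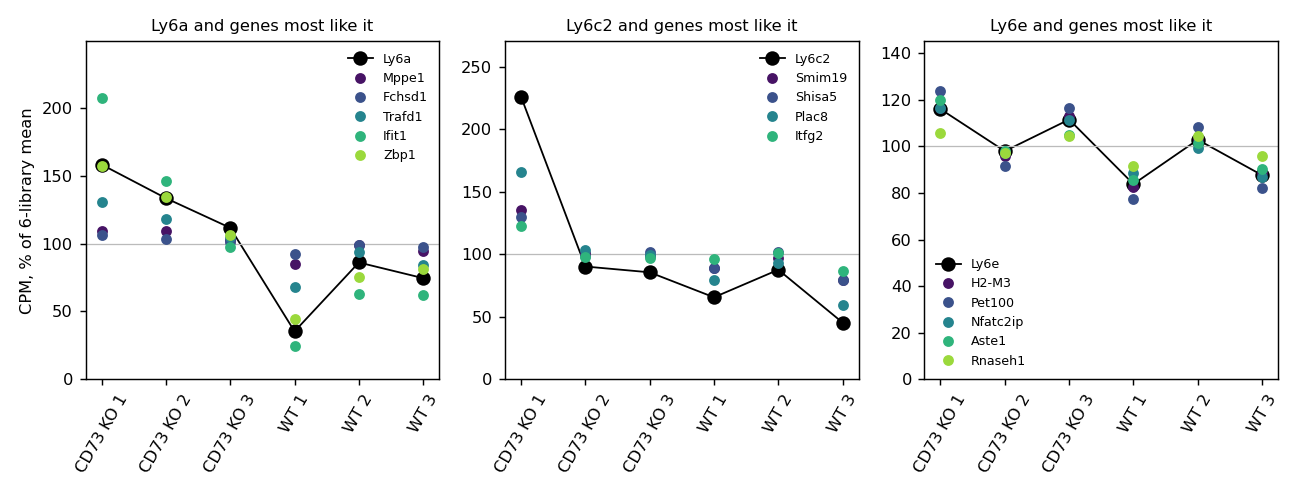
CPM in each library as a percent of the gene's mean over the 6 libraries (vertical axes, from 0, different for each panel) for Ly6a, Ly6c2 and Ly6e (black, joined only to guide the eye) and 4 or 5 of the genes most like each (coloured points). H2-M3 follows Ly6e closely in every library, while Smim19 and Itfg2 vary over a narrower range than Ly6c2.

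The plot of the most alike genes separates likeness of the pattern across libraries from likeness of its size. Zbp1 and H2-M3 followed their member in size as well, whereas Mppe1, Fchsd1, Smim19 and Itfg2 had much flatter profiles.

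Genes of the interferon response were compared with Ly6a, Ly6c2 and Ly6e because these members belong to it. Of 33 interferon-stimulated genes listed, 32 were tested and 32 had a positive difference, with a median log2 difference of 1.03 beside 0.01 for all tested genes. An unadjusted edgeR p under 0.05 was reached by 28 of them (87.5%), beside 9.64% of all genes, and none passed the adjusted threshold. This count was 18 without CD73 KO replicate 1 and 17 with the replicate number as a block. The differences of Ly6a (1.05) and Ly6c2 (1.02) lay near the median of the list, and that of Ly6e (0.25) lay below it. The listed genes with the highest CPM were Ifi27l2a (1.29 ± 0.35, SE), Sp100 (0.49 ± 0.16), Lgals3bp (0.80 ± 0.31) and Trim30a (0.99 ± 0.36), and Irf7, the master factor of interferon production, was at 1.30 ± 0.31. Summed over the list, CD73 KO replicates 1, 2 and 3 held 3658, 3005 and 2300 CPM, and WT replicates 1, 2 and 3 held 1089, 1851 and 1962 CPM. The lowest sum and the lowest Ly6a were in the same library, WT replicate 1, and the highest of both in CD73 KO replicate 1.

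Of 17 receptors and signalling genes of the interferon pathways, 15 had a positive difference, with a median of 0.27. An unadjusted edgeR p under 0.05 was reached by 6 of them (35.3%), beside 9.64% of all tested genes. Among these were Irf9 (0.71 ± 0.14, SE) and Stat2 (0.89 ± 0.24), parts of the complex that binds interferon-stimulated genes, the receptor chain Ifnar2 (0.38 ± 0.12), Irf2 (0.27 ± 0.11) and the inhibitor Socs1 (0.60 ± 0.22). None passed the adjusted threshold. Jak1 and Ifngr1, with the highest CPM, stood at 0.02 ± 0.12 and 0.04 ± 0.20, followed by Stat3 at 0.12 ± 0.19 and Irf1 at 0.81 ± 0.45.

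Genes of the GPI anchor were compared because every member carries one. Of 32 genes of GPI anchor synthesis and remodelling, 30 were tested, with 16 positive and 14 negative differences, a median of 0.01 and none with an unadjusted edgeR p under 0.05. Those with the highest CPM were Tmed10 (-0.13 ± 0.12, SE) and Tmed2 (-0.21 ± 0.11), which carry GPI-anchored proteins out of the endoplasmic reticulum, and Pigt (-0.21 ± 0.14) and Pigs (-0.19 ± 0.11) of the enzyme that attaches the anchor. Of 14 other GPI-anchored proteins of T cells, 13 were tested, with 9 positive and 4 negative differences (among the latter Nt5e, the targeted gene) and a median of 0.10. Thy1, with the highest CPM, had a mean of 1093 ± 61.2 CPM for CD73 KO against 1245 ± 112 CPM for WT (SD, n = 3 each), a log2 difference of -0.19 ± 0.10 (SE). Cd52 was at 0.10 ± 0.14, Cd48 at 0.01 ± 0.12 and Bst2, which tethers budding virus, at 0.29 ± 0.18. An unadjusted edgeR p under 0.05 was reached by 2 of these (15.4%, beside 9.64% of all tested genes), Art2b (1.82 ± 0.49, SE), a surface ADP-ribosyltransferase, and Izumo1r (0.79 ± 0.19), the folate receptor 4 gene, and neither passed the adjusted threshold.

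Of 20 memory and effector genes of CD8 T cells, 19 were tested, with 14 positive and 5 negative differences and a median of 0.22. An unadjusted edgeR p under 0.05 was reached by 3 of those tested (15.8%), beside 9.64% of all tested genes. These were Klf2 (1.46 ± 0.37, SE), Tcf7 (0.77 ± 0.20) and Klrk1 (0.33 ± 0.10), and none passed the adjusted threshold. The first is a factor of T cell quiescence and migration, and the second keeps memory precursors. Il2rb, with the highest CPM of the list, was at -0.26 ± 0.15, Itgal at -0.14 ± 0.14, Bcl2 at 0.12 ± 0.10, Cd44 at 0.03 ± 0.13, Il7r at 0.35 ± 0.31 and Cxcr3 at -0.02 ± 0.30.

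**Figure D5:**
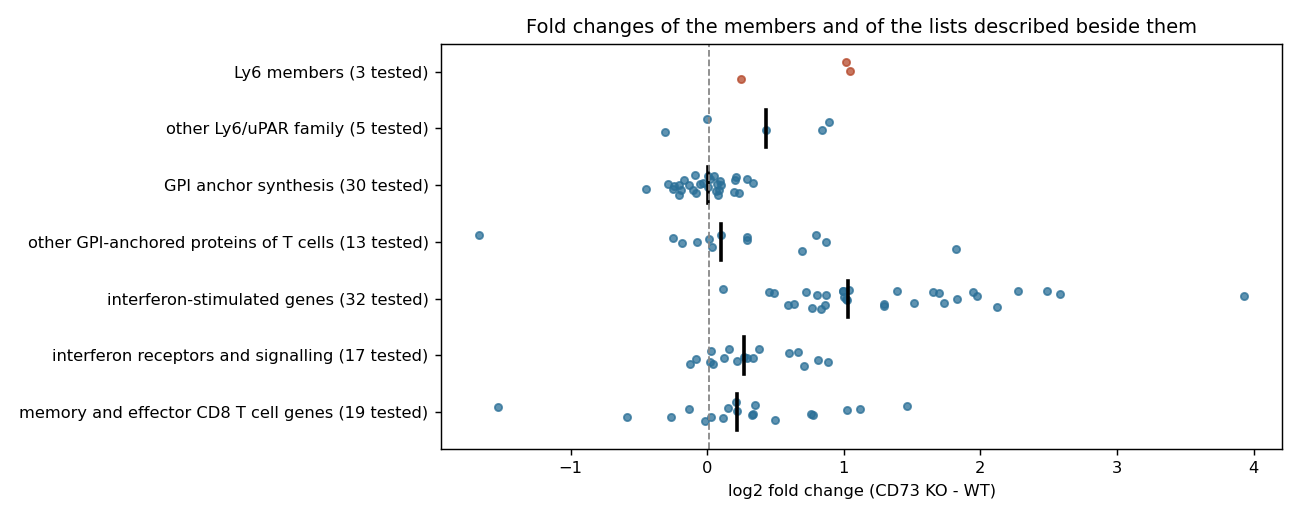
Log2 difference, CD73 KO minus WT (horizontal axis), of each tested gene (points, spread vertically only to keep them apart) in the lists named on the left. Black bars are list medians, not drawn for the 3 tested Ly6 members, and the dashed line is the median of all tested genes, 0.01. The interferon-stimulated genes lie right of 0 with a median of 1.03, and the genes of GPI anchor synthesis are centred at 0.01.

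The plot of the lists places Ly6a and Ly6c2 near the median of the interferon-stimulated genes. Ly6e (0.25) lies below that median, near the low end of the list. Only Ifi27 (0.12) of the tested genes in the list lies lower, and the next above Ly6e is Ifi35 (0.45). Without CD73 KO replicate 1, the median of the list was 0.90, with Ly6a at 0.91 and Ly6c2 at 0.40. Monocytes, endothelium, plasma cells and dendritic cells can also carry Ly6 proteins, so markers of 9 other cell types were read in the same libraries. Of the 8 monocyte and macrophage markers, Lyz2, Csf1r, Fcgr1 and Spi1 had 0 counts in all libraries. That list summed to between 5.81 and 37.4 CPM for CD73 KO and to between 5.84 and 64.4 CPM for WT, almost all of it Ccr2, which T cells also carry. The 6 neutrophil markers reached at most 0.160 CPM (CD73 KO) and 0.639 CPM (WT), with S100a8, Retnlg and Csf3r at 0. Of the 6 endothelial markers, Cdh5, Kdr, Emcn and Tek were at 0, and the list summed to between 72.9 and 107 CPM (CD73 KO) and between 55.0 and 70.4 CPM (WT), mostly Pecam1. Tnfrsf17 of plasma cells, Ms4a1 and Pax5 of B cells, Siglech, Xcr1, Clec9a and Cd209a of dendritic cells and 4 of 5 red cell genes were at 0 as well. The B cell list summed to between 40.6 and 47.8 CPM (CD73 KO) and between 19.4 and 29.6 CPM (WT), mostly Ighd. For the other lists the ranges of the groups overlapped, with sums in any library of at most 35.5 CPM for CD4 T cells, 40.4 CPM for NK cells and 1.52 CPM for dendritic cells. The highest CD4 and NK sums were both in the library labelled WT replicate 2. There Zbtb7b made up 32.3 CPM of the CD4 sum and Cd40lg 2.56 CPM. Eomes, which CD8 T cells also carry, made up 34.5 CPM of the NK sum and Klrb1c 3.83 CPM. Cd4 held at most 5 counts and Ncr1 at most 8 counts in a library. Nearly all of the plasma cell sum was Sdc1, at 16.2 ± 3.07 CPM (CD73 KO) and 20.9 ± 3.04 CPM (WT, SD, n = 3 each). The endothelial and B cell sums were higher in every CD73 KO library, as Ly6a was, and their part in its difference was not tested.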

How the data were processed

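RNA was measured in 6 libraries, 3 labelled CD73 KO and 3 labelled WT. The authors deposited raw counts of reads per gene. Per the submitters' processing notes, fastp, HISAT2 and featureCounts were used on the mm10 build. No versions, annotation release or strand setting are stated in those notes, so antisense reads and reads of near-identical copies may be counted to a gene.

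Genotypes were compared with edgeR 4.0.16 in R 4.3.3 (quasi-likelihood F-test, legacy robust fit, TMM factors, filterByExpr with a minimum count of 10 and a minimum total of 15), with Benjamini-Hochberg adjustment over 12242 genes. The SE is the difference divided by the square root of F. The fit was tested on simulated data. Alternatives were RLE factors, library size alone, no filter, a minimum of 1 CPM in 3 libraries, omitting each replicate in turn, DESeq2 1.42.0, limma-voom (limma 3.58.1), edgeR's newer fit, non-robust dispersions and a block for the replicate number.

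The members and lists were chosen with earlier results of these data known, so the interferon pattern gives no independent support. Named genes were the members, family genes that were tested or had at least 10 counts in a library, the 5 genes of at least 5 CPM most like each member (log2 CPM, prior count 2), tested genes within 500 kb, the 4 most abundant genes of each list and 9 T cell and interferon genes, some of which are not reported here. List genes with an unadjusted p under 0.05, Mppe1 and Zbp1 as ratios, and Lynx1 were named after their values were seen. Coordinates and coding sequences come from GENCODE M21, upstream windows from RefSeq.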

Additional observations from a re-analysis of the deposited data

How the results depend on the processing

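The signs for Ly6a, Ly6c2, Ly6e and the summed pair, and their failure to pass the adjusted threshold, held in all 15 alternatives run for each. With 1 library left out, the log2 difference ran from 0.74 to 1.29 for Ly6a, 0.40 to 1.27 for Ly6c2 and for the pair, and 0.19 to 0.34 for Ly6e. The count of genes past the adjusted threshold, 7, became 298 of 21315 without a filter, 99 with DESeq2 (neither count includes Ly6a, Ly6c2 or Ly6e), and 4 to 8 with 1 library left out (4 without CD73 KO replicate 2, and likewise 4 when WT replicate 2 was left out). The ratio of summed Ly6c1 counts is 2.92 as log2, untested and added after seeing the data. Ly6c1 enters a fit only without the filter, where its log2 difference was 2.69 ± 0.69 (SE, edgeR adjusted p = 0.0190). With 1 library left out there (chosen after seeing the data), it ran from 0.53 to 3.15. It was 0.53 (edgeR adjusted p = 0.885) without CD73 KO replicate 1, 3.08 (0.000571) when CD73 KO replicate 2 was left out and 3.15 (1.01e-05) when CD73 KO replicate 3 was, and the call was also lost without WT replicate 1, 2 or 3 (edgeR adjusted p = 0.353, 0.186 and 0.321). DESeq2 gave 2.64 with no adjusted p. Same-numbered libraries did not deviate together (correlations of 0.15, -0.17 and 0.0137, and none was highest with its own number), so the numbers were not taken as pairs. With the replicate number as a block, 5 genes passed, and the differences were 1.12 for Ly6a, 0.92 for Ly6c2, 0.25 for Ly6e and 0.92 for the pair. The count of interferon-stimulated genes with an unadjusted edgeR p under 0.05 ran from 18 to 29 with 1 library left out. Depth limits Ly6c1 most, since 5 of its 6 libraries held at most 7 counts.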

Other observations

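The libraries in which I830127L07Rik (Ly6a2) was high were also those in which Ccr2, a chemokine receptor, and Eomes, a T-box factor of effector and memory CD8 T cells, were high. Ccr2 stood at 36.8, 5.08 and 11.3 CPM in CD73 KO replicates 1, 2 and 3 and at 47.1, 63.3 and 5.13 CPM in WT replicates 1, 2 and 3. Eomes stood at 15.1, 1.39 and 6.74 CPM in CD73 KO replicates 1, 2 and 3 against 30.1, 34.5 and 2.56 CPM in WT replicates 1, 2 and 3. CD73 KO replicate 1, WT replicate 1 and the library labelled WT replicate 2 were thus the 3 highest for all 3 genes, an order that crosses the genotype labels and was noticed after the values were seen. Ly6a did not follow it, being lowest in WT replicate 1.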
